A study of Rattus norvegicus with 6 samples.

Results

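The cell cycle genes described here are 49 genes chosen by symbol, 27 that act mainly in G2 phase and mitosis (G2/M) and 22 that act mainly in DNA synthesis (S phase). Of these, 48 were found among the 30560 genes counted in the nuclei, and Ndc80, which encodes a kinetochore subunit, was not analysed here. Transcripts were counted as unique molecular identifiers (UMIs) in single nuclei of male wild-type rats aged 12 weeks, 48 h after a sham operation or permanent middle cerebral artery occlusion (MCAO). Each library pooled 1 hemisphere of several rats. Sham L and Sham R held the left and right hemispheres of 4 Sham-operated rats. mMCAO contra and mMCAO ipsi held the hemispheres opposite to and on the side of a moderate infarction in 3 rats, and sMCAO contra and sMCAO ipsi those of 4 rats with severe infarctions. The comparisons are between Sham, MCAO contra and MCAO ipsi, each with 2 libraries. Both Sham libraries come from the same rats, and the MCAO libraries of a group differ in severity, so that p-values measure only how far these libraries lie apart. An exact permutation test of 2 against 2 libraries cannot go below p = 0.333, and summed levels and shares of nuclei are therefore given with counting intervals and without a test, while single genes were tested in edgeR fits across all genes.

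A cell that divides first copies its DNA, then checks and condenses its chromosomes, and finally separates them on the mitotic spindle, and the proteins for each step are made shortly before they are needed. The genes for DNA synthesis are switched on by E2F factors around the entry into S phase, while those for mitosis follow later through promoter elements known as the cell cycle homology region (CHR) and the CCAAT box. In the adult brain, oligodendrocyte progenitor cells (OPCs) keep dividing at a low rate, astrocytes and microglia divide little unless the tissue is injured, and mature oligodendrocytes and neurons have left the cycle.

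The promoters of 4 members that recur in the results are shown, since they carry elements known from promoters of cell cycle genes, of which the CHR and E2F letters differed in frequency between the G2/M and S lists and the CCAAT box was common in both. The sequences are those of RefSeq on the rat assembly GRCr8, from 250 bases before to 50 bases after the annotated start, written 5′ to 3′ on the strand of the gene. Capitals mark the CHR (TTTGAA or TTCGAA), an E2F site (TTTCCCGC, TTTGGCGC or TTTCGCGC) or a CCAAT box (CCAAT), each read on both strands. In Mki67 a CHR and a CCAAT box overlap. Mki67 and Cenpf are G2/M members, and Ezh2 and Pola1 are S members.
Mki67, chr1:199952544-199952843, minus strand: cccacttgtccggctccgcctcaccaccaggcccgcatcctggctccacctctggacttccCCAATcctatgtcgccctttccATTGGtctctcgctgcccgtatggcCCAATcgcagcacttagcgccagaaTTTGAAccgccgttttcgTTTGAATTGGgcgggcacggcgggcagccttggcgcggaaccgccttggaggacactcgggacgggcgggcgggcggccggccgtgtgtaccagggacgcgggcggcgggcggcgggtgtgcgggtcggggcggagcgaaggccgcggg
Cenpf, chr13:103760837-103761136, minus strand: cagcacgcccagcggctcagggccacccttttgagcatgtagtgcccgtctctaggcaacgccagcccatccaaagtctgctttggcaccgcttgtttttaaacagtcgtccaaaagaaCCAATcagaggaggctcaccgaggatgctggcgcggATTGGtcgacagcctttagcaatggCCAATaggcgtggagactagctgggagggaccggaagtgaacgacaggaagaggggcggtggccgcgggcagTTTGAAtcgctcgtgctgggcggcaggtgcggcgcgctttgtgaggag
Ezh2, chr4:77687134-77687433, minus strand: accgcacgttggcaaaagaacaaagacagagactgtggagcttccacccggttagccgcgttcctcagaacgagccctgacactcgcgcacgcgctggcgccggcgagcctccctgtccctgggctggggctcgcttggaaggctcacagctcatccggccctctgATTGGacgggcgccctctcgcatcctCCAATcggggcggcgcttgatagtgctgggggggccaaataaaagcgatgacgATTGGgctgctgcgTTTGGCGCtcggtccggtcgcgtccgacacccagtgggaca
Pola1, chrX:62342306-62342605, minus strand: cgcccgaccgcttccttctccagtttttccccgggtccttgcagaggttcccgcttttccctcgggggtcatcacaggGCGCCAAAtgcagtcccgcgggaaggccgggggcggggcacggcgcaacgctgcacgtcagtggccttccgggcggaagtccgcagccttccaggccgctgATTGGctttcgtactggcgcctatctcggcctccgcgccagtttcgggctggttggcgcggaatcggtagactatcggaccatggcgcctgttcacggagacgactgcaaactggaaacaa

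Promoters were found for 42 of the members, 44 promoters in all. The CHR letters stood in 17 of 24 promoters of G2/M members (70.8%) and in 4 of 20 promoters of S members (20%), beside 19.7% of all 33469 promoters. The E2F letters stood in 10 of 20 promoters of S members (50%) and in 4.17% of those of G2/M members, beside 1.72% of all promoters. The CCAAT box was present in 15 of 24 promoters of G2/M members (62.5%) and in 16 of 20 of S members (80.0%), beside 37.5% of all. These matches describe letters in a window and no site was tested.

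Nuclei were assigned to cell classes by marker genes that are not cell cycle genes, and a class name stands for nuclei that carry those markers. The gate gave 1561 OPC, 1601 astrocyte, 5637 oligodendrocyte, 851 microglia, 604 macrophage, 46214 neuron nuclei and a vascular class made of 520 endothelial, 102 mural, 106 fibroblast and 15 unresolved nuclei. A further 1478 nuclei carried markers of myeloid cells in general and were not resolved into microglia or macrophages. The thresholds were set after the marker counts had been seen, and 378 of the OPC nuclei (24.2%), 336 of the astrocyte (20.99%), 1628 of the oligodendrocyte (28.9%) and 38 of the fibroblast nuclei (35.8%) lay near the cut, against 30 of the microglia (3.53%) and 59 of the macrophage nuclei (9.77%). The gate selected on the class markers, so their presence in each class was set by design. The summed OPC marker level was 10434 CPM (UMIs scaled to the same total in each class and library) in OPCs against 297 CPM in astrocytes. The summed astrocyte marker level was 10970 CPM in astrocytes against 623 CPM in OPCs. Fibroblast nuclei also held 1580 CPM of OPC markers. Depth was 33012945 to 52513380 UMIs a library. The library of severely infarcted hemispheres stood apart, with 2673 neuron nuclei against 6936 to 10118 in the others and 0.396% mitochondrial UMIs against at most 0.108%, and pairs of libraries shared 118 to 281 cell barcodes.

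Cell cycle transcripts were higher in OPCs, astrocytes and microglia of infarcted hemispheres than in those of the other libraries, and low in oligodendrocytes and neurons of all libraries. The summed level of the 26 G2/M members in OPCs was 533 CPM in Sham L and 309 CPM in Sham R, 539 CPM in mMCAO contra and 688 CPM in sMCAO contra, and 2936 CPM in mMCAO ipsi and 3227 CPM in sMCAO ipsi. In astrocytes it was 81.5 and 37.6 CPM in the Sham libraries, 56.2 and 53.6 CPM in the contralateral hemispheres, and 1424 CPM in mMCAO ipsi and 2385 CPM in sMCAO ipsi. Both infarcted hemispheres lay above the other 4 libraries in both classes, and the groups did not overlap. Microglia were nearly missing from Sham, with 2 nuclei in each library. Their G2/M level was 842 and 1370 CPM in mMCAO contra and sMCAO contra and 3453 and 4307 CPM in mMCAO ipsi and sMCAO ipsi. Oligodendrocytes lay between 190 and 244 CPM and neurons between 46.3 and 61.3 CPM in the 6 libraries. Anln, which myelinating cells also make, gave 98.6 to 150 CPM of the oligodendrocyte sum. The low remainder of that sum was highest in the infarcted hemispheres.

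**Figure D1:**
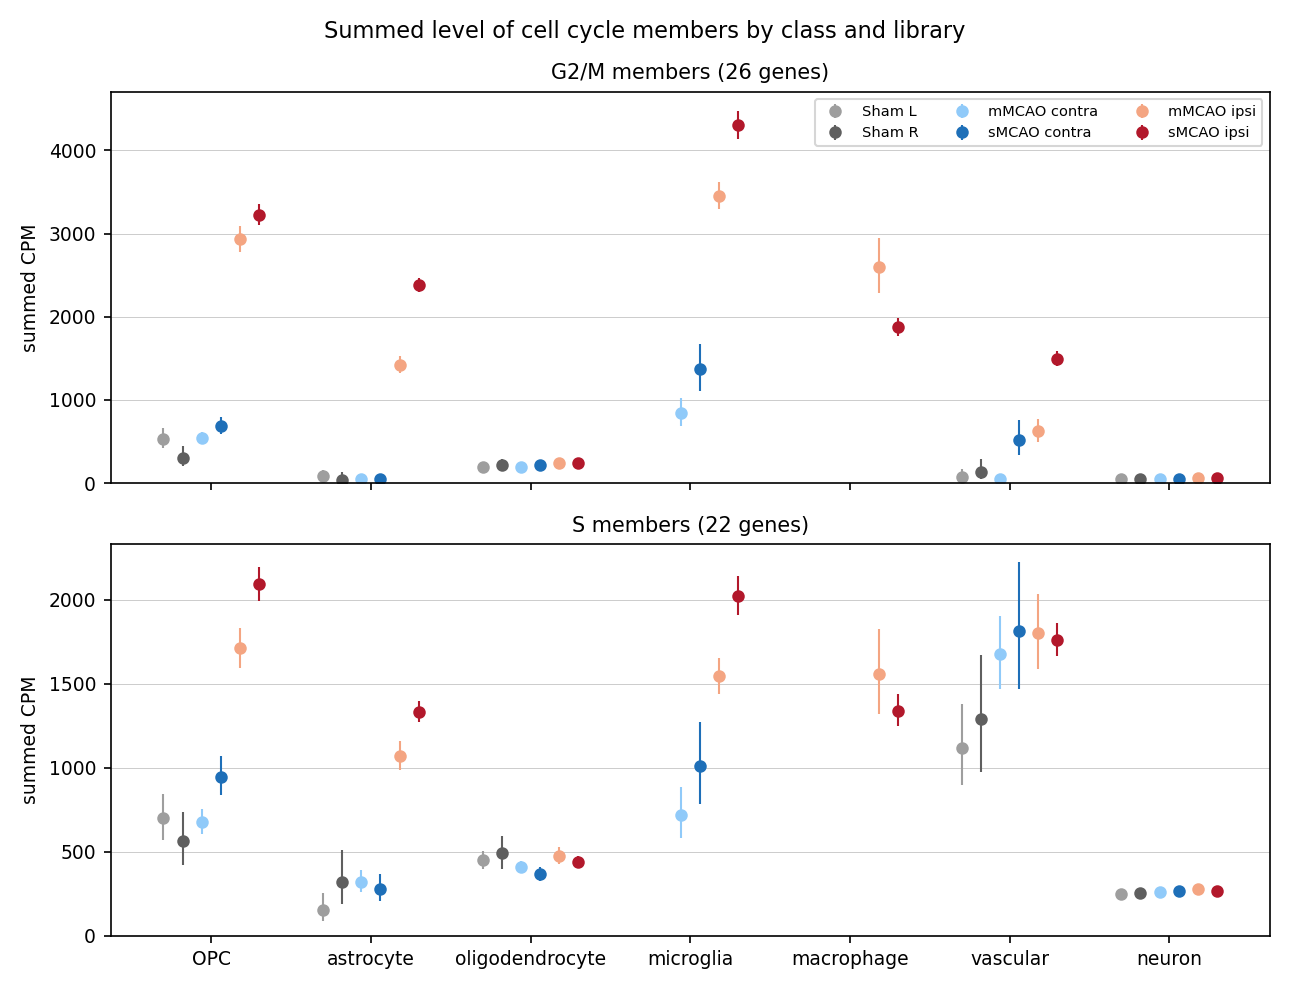
Summed level in CPM of the 26 G2/M members (top) and the 22 S members (bottom) in each class, with 1 point a library and exact 95% Poisson intervals that hold counting error only. Libraries with fewer than 20 nuclei of a class are not drawn. In OPCs, astrocytes and microglia the infarcted hemispheres (orange and red) lie above the others, with 1424 to 4307 CPM of G2/M members. Oligodendrocytes lie at 190 to 244 CPM, of which Anln gives 98.6 to 150 CPM.

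The S members differed less between the groups. Their summed level in OPCs was 698 and 562 CPM in Sham L and Sham R, 677 and 947 CPM in mMCAO contra and sMCAO contra, and 1711 and 2093 CPM in mMCAO ipsi and sMCAO ipsi. Over the pooled libraries, MCAO ipsi exceeded Sham in OPCs by a ratio of 6.94 (95% counting interval 5.74 to 8.48) for G2/M members and 3.02 (2.57 to 3.57) for S members. In astrocytes the same ratios were 31.8 (17.3 to 66.3) and 5.93 (4.19 to 8.70), against a Sham level that rested on 10 G2/M UMIs. For G2/M members the ratio of the contralateral hemisphere to Sham was 1.32 (1.07 to 1.65) in OPCs and 0.835 (0.394 to 1.93) in astrocytes. These intervals leave out the spread between libraries and rats. In OPCs 0 of 37 members tested were called between MCAO contra and Sham, beside 0% of all genes. In oligodendrocytes MCAO ipsi and Sham differed by a ratio of 1.23 (1.03 to 1.47) for G2/M and 0.980 (0.870 to 1.10) for S members.

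Among OPCs, 37 members had enough counts to be tested, and each was tested with edgeR (quasi-likelihood) and adjusted by the Benjamini-Hochberg method over all genes of the class. Of these, 27 were called higher in MCAO ipsi than in Sham, beside 3.73% of all genes tested, and 0 were called lower, beside 4.91%. The called members were 20 of 23 G2/M and 7 of 14 S members. Against MCAO contra, 30 of 37 were called higher, beside 5% of all genes, and 0 lower, beside 4.64%. The median log2 difference was 2.26 for G2/M and 1.25 for S members, beside 0.016 for all genes. Members pass the filter on low counts mainly through the libraries in which they are high, so these counts are a description and the tested members are not all members. With no filter, 34 and 33 of the 48 were called higher against Sham and against MCAO contra. The share of all genes called in that run is not given. Without Sham L the count against Sham was 7 and without Sham R 14, without mMCAO contra the count against MCAO contra was 18, and the count against Sham was 10 with the stricter marker gate and 14 with DESeq2, which called 17 against MCAO contra.

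Among the cyclins and mitotic kinases of OPCs, Ccnf, which encodes cyclin F, was at 6.58 and 0 CPM in Sham L and Sham R, 17.3 and 3.60 CPM in mMCAO contra and sMCAO contra, and 69.5 and 78.4 CPM in mMCAO ipsi and sMCAO ipsi. It rose by 4.00 ± 0.88 (log2, SE) against Sham (adjusted p = 0.00857, edgeR), and Ccna2, which encodes cyclin A2 of S phase and G2, rose by 3.42 ± 1.01 (adjusted p = 0.0455, edgeR). Each of these 2 genes had 1 UMI in Sham L and 0 in Sham R, so the size of the rise is uncertain. Cdk1, the kinase that starts mitosis, was at 29.5 and 48.5 CPM in the infarcted hemispheres and at most 6.58 CPM elsewhere, and it was called against MCAO contra but not against Sham (adjusted p = 0.069, edgeR). The values of Ccna2 were 6.58, 0, 6.49, 21.6, 37.9 and 58.5 CPM in Sham L, Sham R, mMCAO contra, sMCAO contra, mMCAO ipsi and sMCAO ipsi. This order holds for all later sets of 6 values. Both cyclins were highest in the infarcted hemispheres.

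Kinetochore and spindle members of OPCs were next. Cenpf, a kinetochore protein that builds up in G2, was at 46.1, 11.02, 47.6, 43.2, 288 and 334 CPM. Its difference from Sham was 3.16 ± 0.38 (log2, adjusted p = 1.5e-04, edgeR) and from MCAO contra 2.67 ± 0.26. Knl1, a scaffold of the outer kinetochore, was at 26.3, 44.1, 25.96, 36.0, 166 and 180 CPM. All 6 tested members of the kinetochore and checkpoint group and all 9 of the spindle group were among the 22 of 23 tested G2/M members called against MCAO contra, beside 5% of all genes. Aspm, which focuses spindle poles, was at 46.1, 11.02, 36.8, 43.2, 187 and 177 CPM, and Kif4a, a kinesin of condensed chromosomes, at 46.1, 22.1, 32.5, 43.2, 204 and 171 CPM. The infarcted hemispheres did not overlap the others for any of these. Bub1, a checkpoint kinase, had no UMI in the Sham libraries and 84.2 and 99.6 CPM in the infarcted hemispheres, at least 7.59-fold higher.

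Mki67, which encodes the proliferation marker Ki-67, was at 26.3, 33.1, 25.96, 43.2, 215 and 225 CPM in OPCs and rose by 2.84 ± 0.39 against Sham (log2, adjusted p = 3.66e-04, edgeR). Top2a, the topoisomerase that untangles sister DNA, was at 65.8, 44.1, 45.4, 104, 261 and 275 CPM. Ect2, which triggers cytokinesis, was at 13.2, 11.02, 21.6, 32.4, 173 and 164 CPM. Each lay above every other library in both infarcted hemispheres. Anln, an actin-binding protein of the cleavage furrow that myelinating cells also make, was at 52.6 and 79.6 CPM in the infarcted hemispheres and 22.1 to 32.9 CPM elsewhere and was not called.

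Of the S members, Pola1, the catalytic subunit of DNA polymerase alpha, was at 158, 154, 139, 209, 352 and 454 CPM in OPCs and rose by 1.29 ± 0.26 against Sham (log2, adjusted p = 0.00533, edgeR). Ezh2, the methyltransferase of Polycomb complex 2, was at 85.6, 66.1, 84.4, 148, 295 and 307 CPM and rose by 1.87 ± 0.32 (adjusted p = 0.00161). Atad2, a chromatin ATPase, was at 59.3, 33.1, 54.1, 61.2, 145 and 158 CPM and rose by 1.55 ± 0.36. The repair genes Brca1 and Polq, which act in homologous recombination and end joining, rose by 1.45 ± 0.43 and 1.67 ± 0.46 against Sham. Rrm1 and Tyms, which supply deoxynucleotides, were not called against either group. Rrm1 was at 13.2, 0, 30.3, 28.8, 58.9 and 37.3 CPM and Tyms at 6.58, 0, 17.3, 14.4, 29.5 and 34.8 CPM. Of the 5 MCM helicase subunits only Mcm4 had enough counts in OPCs for the test, which did not call it. It was at 52.6 and 52.3 CPM and Mcm2 at 8.42 and 11.2 CPM in mMCAO ipsi and sMCAO ipsi. Mcm6 was at 0, 0, 8.65, 10.8, 21.05 and 46.0 CPM, at least 2.97-fold higher in MCAO ipsi than in Sham and higher than in MCAO contra by a ratio of 3.89 (1.75 to 10.2).

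In astrocytes many members had no UMI outside the infarction. Of the 48, the Sham libraries detected 14 and 10, the contralateral hemispheres 26 (moderate) and 22 (severe), and the infarcted hemispheres 47 and 48. Detection also depends on depth, and these libraries held 117, 80, 300, 195, 398 and 511 astrocyte nuclei. The share of all genes detected is not given, so these counts show nothing particular to the members. Cenpf was at 131 and 182 CPM in the infarcted hemispheres and had no UMI in the other 4 libraries, which makes it at least 8.42-fold higher than in Sham and at least 28.2-fold higher than in MCAO contra. The same held for Mki67 with 98.0 and 159 CPM, at least 7.11-fold and 23.8-fold higher, and for Ect2 with 101 and 161 CPM, at least 7.24-fold and 24.3-fold higher. These bounds put 3 UMIs in the place of 0 over the group. Of 25 members tested in astrocytes, 19 were called higher than in Sham, beside 6.38% of all genes, and 23 higher than in MCAO contra, beside 7.08% of all genes. None of the 25 were called lower, beside 6.09% of all genes against Sham and 5.88% against MCAO contra. Here too members pass the filter on low counts mainly through the infarcted hemispheres, and 30 of the 48 had no UMI in Sham. These counts are therefore a description, and the shares of all genes are no like comparison. With no filter, 28 and 36 of the 48 were called, again without a share of all genes to set beside them. The count against Sham was 0 without Sham L, 9 without Sham R, 3 with the stricter gate and 9 with DESeq2, and the count against MCAO contra was 6 without mMCAO contra.

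Of the 22 S members, 12 had no UMI in astrocytes of the Sham libraries, and the changes below rest on few Sham UMIs. Ezh2 was at 30.6, 56.4, 21.8, 37.5, 158 and 272 CPM and rose by 2.42 ± 0.52 against Sham (log2, adjusted p = 0.00582, edgeR). Pola1 was at 40.8, 56.4, 78.0, 37.5, 210 and 252 CPM and rose by 2.28 ± 0.45 (adjusted p = 0.00317). Brca1 was at 0, 18.8, 3.12, 5.36, 68.2 and 82.4 CPM and rose by 3.44 ± 0.92 (adjusted p = 0.0215). It had 0 UMIs in Sham L and 1 in Sham R. Nasp, a histone chaperone with 1 UMI in each Sham library, was called against Sham (2.78 ± 0.67). It was not called against MCAO contra (adjusted p = 0.0781, edgeR). Prim1, the primase subunit, was called against MCAO contra (1.27 ± 0.40) but not against Sham (adjusted p = 0.241, edgeR).

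Microglia could only be compared within the MCAO rats. Cenpf was at 56.7 and 28.8 CPM in mMCAO contra and sMCAO contra and at 281 and 364 CPM in mMCAO ipsi and sMCAO ipsi. Mki67 was at 81.0 and 173 CPM against 312 and 439 CPM, and Top2a at 89.1 and 101 CPM against 255 and 324 CPM. The infarcted hemispheres were higher for each, and the pooled G2/M level exceeded that of MCAO contra by a ratio of 3.78 (3.28 to 4.38). Of 40 members tested in microglia, 0 were called (edgeR's quasi-likelihood test on 4 libraries), while 24 were past an unadjusted p of 0.05, and 0% of all genes were called in either direction. Cenpf differed by 2.70 ± 0.38 (log2, adjusted p = 0.576). With no filter on low counts 21 of the 48 were called, and leaving out 1 library gave 0 to 19. In all myeloid nuclei combined 0 of 44 members were called beside 0% of all genes, 16 were past an unadjusted p of 0.05, and 8 of 48 were called with no filter. Shares of all genes called are not given for the runs with no filter or without 1 library. Those counts therefore have no comparison.

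Macrophages came almost entirely from the infarcted hemispheres, with 94 nuclei in mMCAO ipsi, 493 in sMCAO ipsi and 17 in both contralateral libraries together, so that no test against another group was made. Their G2/M level was 2601 CPM in mMCAO ipsi and 1876 CPM in sMCAO ipsi, and 1150 CPM (9 UMIs, 7 nuclei) in mMCAO contra and 3803 CPM (50 UMIs, 10 nuclei) in sMCAO contra. The infarcted hemispheres thus did not lie above both others. Mki67 was at 318 and 226 CPM in mMCAO ipsi and sMCAO ipsi and at 383 and 608 CPM in mMCAO contra and sMCAO contra, on 3 and 8 UMIs. Cenpf was at 195 and 149 CPM and Pola1 at 359 and 239 CPM in mMCAO ipsi and sMCAO ipsi. Both infarcted libraries exceeded the contralateral ones for 15 of the 48 members, on those 7 and 10 contralateral nuclei. The share over all genes is not given, so this count shows nothing particular to the members.

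In the vascular class the G2/M members summed to 77.1, 136, 56.6, 522, 624 and 1494 CPM, a ratio of 13.7 (7.82 to 26.6) between MCAO ipsi and Sham that rested on 12 UMIs in Sham. The make-up of the class differed, with 2 fibroblast nuclei in Sham and 95 in MCAO ipsi, which held 570 of the 1147 G2/M UMIs there, and in endothelial nuclei alone the ratio was 9.19 (4.62 to 21.4). Only 3 members passed the filter in this class, so that a change of single members was mostly not detectable at this depth. Of them Pola1, at 12.9, 67.9, 134, 193, 175 and 267 CPM, was called higher than in Sham (2.72 ± 0.62, adjusted p = 0.0468, edgeR), beside 0.673% of all genes, and 0 of 3 were called lower, beside 1.9%. Against MCAO contra 0 of 3 were called (edgeR, 0 at an unadjusted p under 0.05), beside 0% of all genes called higher and 0.0293% lower. That call was lost with DESeq2, with the stricter gate and with the 2 groups alone. Within the vascular class of sMCAO ipsi the G2/M level was 797 CPM in endothelial, 1685 CPM in mural and 2811 CPM in fibroblast nuclei. The fibroblast value came from 78 nuclei, and vascular nuclei with G2/M UMIs held 3006 CPM of endothelial markers against 8312 CPM in the others, 1158 against 452 CPM of OPC markers and 831 against 561 CPM of astrocyte markers. Their part in the result was not tested.

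The gene named Cdc45, a helicase activator that starts replication forks, is listed under 2 identifiers with unlike patterns. ENSRNOG00000070046 was at 0, 0, 6.49, 21.6, 31.6 and 63.5 CPM in OPCs and had 0 UMIs in the vascular class of all libraries but sMCAO ipsi, which held 36.7 CPM. ENSRNOG00000050071 was at 886, 996, 1272, 1198, 1058 and 551 CPM in the vascular class and at most 11.02 CPM in OPCs. Within the vascular class it was at 850.7 to 1370 CPM in endothelial nuclei. In mural nuclei it was at 197 to 3081 CPM, on 3 to 19 UMIs a library. The next gene to Cdc45 in RefSeq is Cldn5, a tight junction gene of endothelial cells whose symbol is not among the genes counted. A link of this identifier to Cldn5 was not tested. Without this identifier the S members of the vascular class summed to 231, 294, 403, 619, 743 and 1209 CPM, lowest in Sham and highest in the infarcted hemispheres. With it they lay between 1118 and 1817 CPM.

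Oligodendrocytes showed no call for any of the 12 members tested, either against Sham (beside 0.855% of all genes called higher and 3.19% lower, edgeR, 1 at an unadjusted p under 0.05) or against MCAO contra (beside 0% of all genes, 0 at an unadjusted p under 0.05), and DESeq2 called 0 as well. Mki67 was at 1.59, 0, 2.13, 8.25, 10.96 and 7.09 CPM in this class. Some members that rose in other glia were present here as well. Ezh2 was at 118, 122, 102, 97.8, 123 and 107 CPM and Pola1 at 65.1, 93.0, 74.0, 88.4, 87.7 and 79.9 CPM. Anln was at 130, 118, 119, 150, 98.6 and 133 CPM. None of these 3 separated the groups.

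Neurons held low levels of G2/M members, some of which still moved with the groups. Mki67 was at 0.641, 0.575, 0.533, 1.33, 2.30 and 3.00 CPM and Top2a at 0.362, 0.251, 0.242, 0.420, 1.34 and 2.24 CPM in neurons. Of 42 members tested in neurons, 7 were called higher in MCAO ipsi than in Sham (Cenpf, Dtl, Ect2, Kif11, Mki67, Nuf2 and Top2a), beside 3.62% of all genes, and Kif23, a kinesin of cytokinesis, was called lower (-0.78 ± 0.17, adjusted p = 0.0283, edgeR), beside 1.57%. Against MCAO contra 6 neuron members were called higher, beside 1.43% of all genes, and 0 lower, beside 0.772%. The levels of Mki67 and Top2a in neurons lay far under those in OPCs of the same libraries. The cause of the calls in neurons was not tested.

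The change in Ezh2 differed between OPCs and oligodendrocytes by 1.94 ± 0.44 (log2 difference between classes of MCAO ipsi against Sham, adjusted p = 0.044, edgeR interaction), the single member called, beside 0.304% of all genes higher and 0.0628% lower. It was not called with relative log expression factors or with the stricter gate. Between OPCs and astrocytes 0 of 37 members were called for a difference in change and 3 had an unadjusted p under 0.05 (edgeR, and DESeq2 called 0), beside calls in 0% of all genes upward and 0.0524% downward, which does not show that the changes were alike. Between MCAO contra and Sham 0 members were called in OPCs, astrocytes, oligodendrocytes, the vascular class or neurons (edgeR and DESeq2), beside 0.0176% of all genes in each direction in astrocytes, 0.00623% higher and 0.0249% lower in neurons and 0% in the other 3 classes, and 1 of 37 in OPCs, 1 of 25 in astrocytes, 1 of 12 in oligodendrocytes, 2 of 42 in neurons and 2 of 3 in the vascular class were at an unadjusted p under 0.05. The vascular ones were Pola1 (2.14 ± 0.70, log2, adjusted p = 0.884, edgeR) and Ezh2 (2.28 ± 0.84), both higher in MCAO contra.

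Within the infarcted hemispheres the classes were compared with library as a block. OPCs exceeded oligodendrocytes in 44 of 46 members tested, beside 15.1% of all genes, with Cenpf at 6.03 ± 0.45, on 9 UMIs in oligodendrocytes, Nuf2, a kinetochore subunit, at 4.72 ± 0.42 and Mki67 at 4.50 ± 0.41 (log2, adjusted p for Nuf2 = 2.84e-06, edgeR). Kif18b, a kinesin that shortens microtubules, had 0 UMIs in these oligodendrocytes. Anln was the 1 member called lower in OPCs (-0.98 ± 0.31, adjusted p = 0.0281). Astrocytes exceeded oligodendrocytes in 38 members, beside 20.2% of all genes. OPCs exceeded astrocytes in 8 members, beside 7.67% of all genes, among them Kif18b (1.34 ± 0.30, adjusted p = 0.00586), Prim1 (1.15 ± 0.31) and Pola1 (0.83 ± 0.25), and the count was 1 without the block, 3 with DESeq2 and 14 with doublet-scored nuclei kept.

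The comparisons that follow tested 46 members each. Between OPCs and microglia of MCAO ipsi, 4 of 46 were called higher in OPCs, beside 13.8% of all genes, and 2 of 46 lower, beside 15.3%. Both are smaller parts than among all genes, so these counts show nothing particular to the members. Ezh2 was higher in OPCs by 1.33 ± 0.28 (log2, adjusted p = 0.00178, edgeR) and Nasp by 0.91 ± 0.26. Aurka, a kinase of the spindle poles, was lower in OPCs (-1.86 ± 0.44, adjusted p = 0.0047), with 79.3 and 98.3 CPM in microglia against 18.9 and 22.4 CPM in OPCs. Microglia also exceeded astrocytes in 15 members, beside 16.6% of all genes, including Mki67 (-1.34 ± 0.31, astrocytes against microglia) and Cenpe, a motor that moves chromosomes to the spindle equator (-1.34 ± 0.38). The count was 3 with DESeq2 and 4 with no replicate block. Ezh2 was the 1 member of 46 called higher in astrocytes than in microglia (0.83 ± 0.28), a smaller part than the 17.1% of all genes. Between microglia and macrophages, Nuf2 (2.05 ± 0.37, adjusted p = 0.00887) and Kif11 (1.62 ± 0.40), the motor that pushes spindle poles apart, were called higher in microglia, beside 0.766% of all genes. OPCs exceeded macrophages in 15 members, beside 15.4% of all genes.

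**Figure D2:**
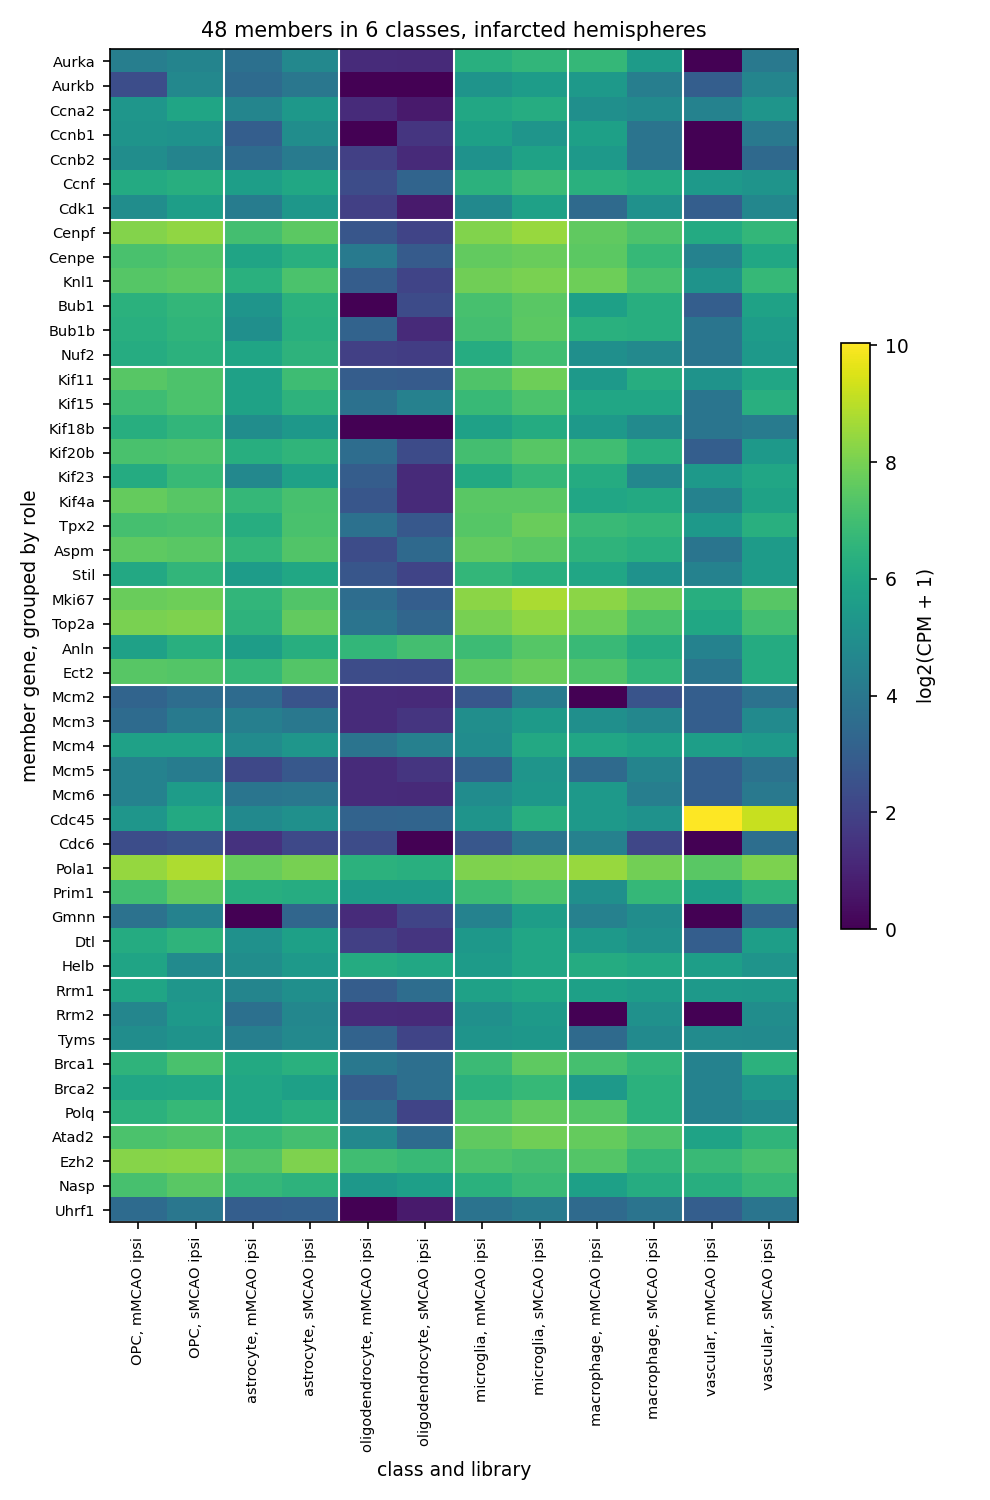
Level of each of the 48 members, as log2(CPM + 1), in 6 classes of mMCAO ipsi and sMCAO ipsi, with genes grouped by role. In oligodendrocytes nearly all G2/M members other than Anln are low, Ezh2 and Pola1 are present in all 6 classes, and Cdc45, drawn with both identifiers summed, is high in the vascular class, where ENSRNOG00000050071 reached 1058 CPM in mMCAO ipsi.

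The vascular class was below OPCs in 29 of 46 members tested, beside 14% of all genes, among them Kif18b (-2.68 ± 0.40) and Aspm (-2.51 ± 0.43). The vascular class exceeded OPCs in the ENSRNOG00000050071 identifier of Cdc45 alone (7.03 ± 0.52), beside 17.9% of all genes. Across the 6 classes, the same class held the highest level of a member in both infarcted hemispheres for 22 members. That class was microglia for 9 G2/M and 5 S members and OPC for 2 G2/M and 4 S members, while macrophages and vascular nuclei each led for 1 S member. The vascular one was Cdc45, with both identifiers summed. A share over all genes is not given, so these counts show nothing particular to the members.

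Cell cycle transcripts were also counted nucleus by nucleus. Each nucleus was thinned to 1000 UMIs, shallower nuclei were left out, and a nucleus was counted as positive for a phase with UMIs of at least 2 of its members. Among OPCs, 107 of 216 nuclei in mMCAO ipsi (49.5%, exact 95% interval 42.7 to 56.4) and 134 of 357 in sMCAO ipsi (37.5%, 32.5 to 42.8) were G2/M-positive. The moderate contralateral library had 14 positive nuclei of 253 (5.53%) and the severe one 19 of 118 (16.1%), together 33 of 371 (8.90%). Sham L had 4 of 38 (10.5%) and Sham R 2 of 27 (7.41%), together 6 of 65 (9.23%). The severe contralateral share thus lay above both Sham shares and the moderate contralateral share below both, with few Sham nuclei. The depth limit had kept unlike parts of the class. These were 38 of 131 OPC nuclei in Sham L, 27 of 97 in Sham R, 216 of 394 in mMCAO ipsi and 357 of 370 in sMCAO ipsi. The shares hold for the nuclei kept and not for the whole class. Without thinning 38.9% of OPC nuclei in MCAO ipsi were positive. In neurons, which do not divide, 0.0957 to 0.375% of nuclei were positive at the same 1000 UMIs, with a median depth before thinning of 3538 UMIs against 1207 UMIs in OPCs.

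Astrocytes gave 58 of 293 G2/M-positive nuclei in mMCAO ipsi (19.8%, 15.4 to 24.8) and 103 of 486 in sMCAO ipsi (21.2%, 17.6 to 25.1), against 2 of 226 in MCAO contra (0.885%) and 0 of 22 in Sham. Microglia gave 104 of 160 (65.0%) and 162 of 292 (55.5%) in the infarcted hemispheres and 12 of 46 (26.1%, 14.3 to 41.1) in MCAO contra. Here the depth limit had kept 160 of 331 nuclei in mMCAO ipsi and 292 of 390 in sMCAO ipsi. Macrophages gave 18 of 26 (69.2%, 48.2 to 85.7) in mMCAO ipsi and 84 of 255 (32.9%, 27.2 to 39.1) in sMCAO ipsi. For macrophages the limit had kept 26 of 94 nuclei in mMCAO ipsi and 255 of 493 in sMCAO ipsi. For astrocytes it had kept 293 of 398 and 486 of 511. All these shares hold for the nuclei kept and not for the whole class. Positive macrophage nuclei of MCAO ipsi held 2893 CPM of macrophage markers against 3286 CPM in the others. Microglia markers were at 522 CPM in the positive against 358 CPM in the other macrophage nuclei. Whether cycling microglia were among them was not tested. The gate required class markers, so positive OPC and astrocyte nuclei held them by design. OPC markers were at 7485 CPM in positive against 10660 CPM in other OPCs. Astrocyte markers were at 10360 CPM in positive against 12360 CPM in other astrocytes. The positive nuclei were the deeper ones before thinning, with a median of 2009 against 1586 UMIs in OPCs and 3489 against 1714 UMIs in astrocytes. In macrophages the medians were 1843 against 1249 UMIs. Oligodendrocytes were positive in 22 of 926 nuclei of MCAO ipsi (2.38%), 7 of 565 of MCAO contra (1.24%) and 2 of 191 of Sham (1.05%), and the few positive ones held 1076 CPM of OPC markers against 267 CPM in the others.

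**Figure D3:**
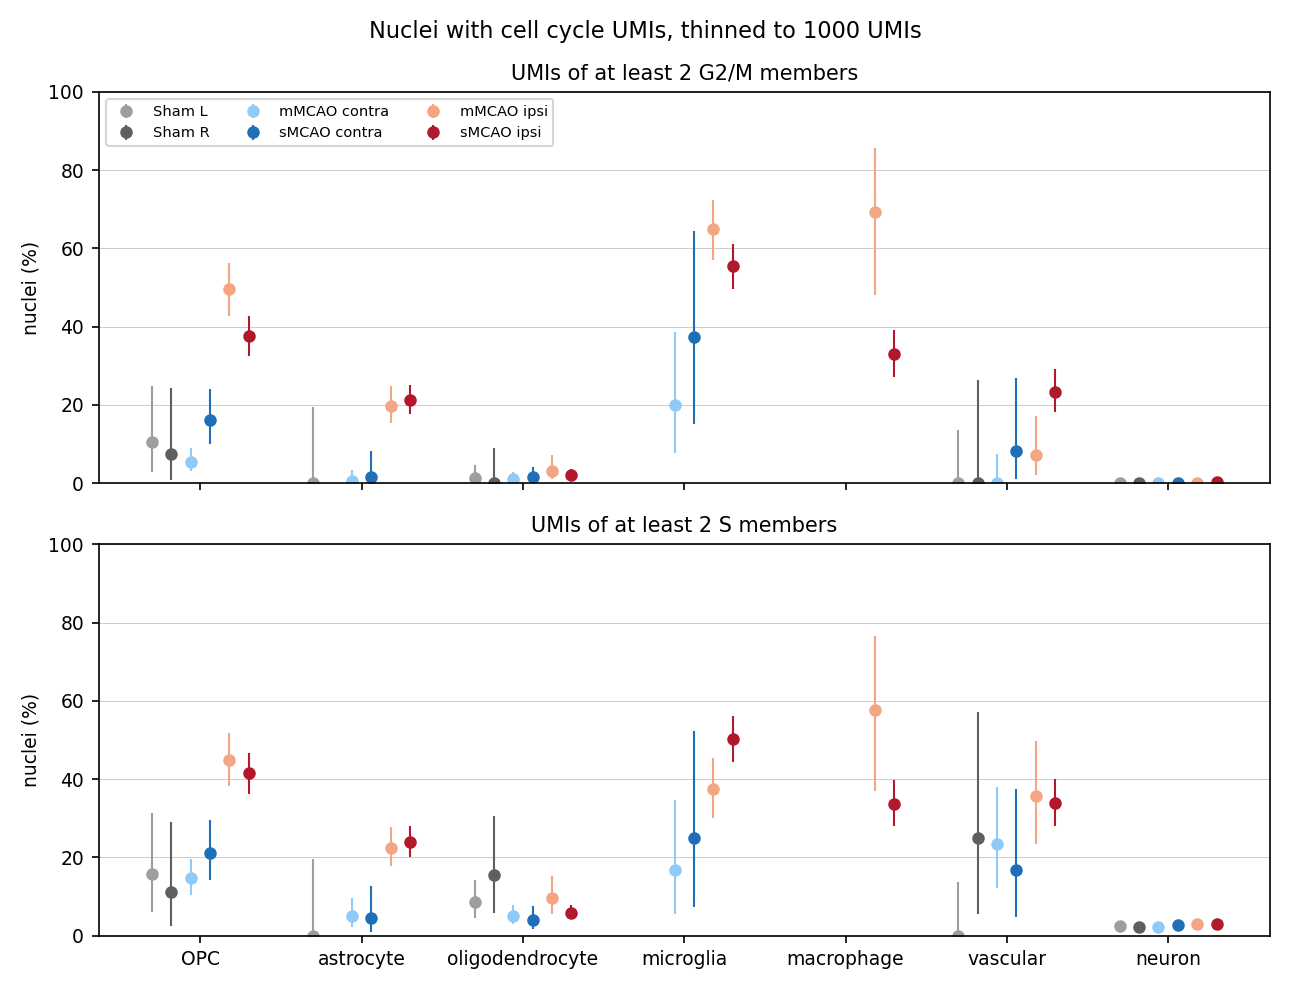
Percent of nuclei with UMIs of at least 2 G2/M members (top) or 2 S members (bottom) after thinning to 1000 UMIs, by class and library, with exact 95% binomial intervals that hold counting error only. Libraries with fewer than 10 such nuclei are not drawn; OPCs reach 49.5% and 37.5% and microglia 65.0% and 55.5% in the infarcted hemispheres, astrocytes 19.8% and 21.2%, and neurons at most 0.375%.

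Neuron markers in OPCs moved with the groups, with summed levels of 10143 to 10584 CPM in Sham, 7997 to 8706 CPM in MCAO contra and 5718 to 7010 CPM in MCAO ipsi. Within MCAO ipsi they were alike in G2/M-positive and other OPCs, at 5962 and 5974 CPM. In astrocytes they ran from 5931 to 6035 CPM in Sham to 1765 to 2432 CPM in MCAO ipsi. Their part in the group differences was not tested.

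With all members counted, the G2/M share of member UMIs differed between classes and groups. The G2/M members gave 43.3% and 35.4% of member UMIs in OPCs of Sham L and Sham R, 44.3% and 42.1% in mMCAO contra and sMCAO contra, and 63.2% (95% interval 61.1 to 65.2) and 60.7% (59.2 to 62.1) in mMCAO ipsi and sMCAO ipsi. In astrocytes the infarcted hemispheres were at 57.1% and 64.2%, in microglia at 69.1% and 68.0% and in macrophages at 62.6% and 58.3%. Oligodendrocytes were at 29.7 to 36.7% and neurons at 15.2 to 18.2% in all libraries. Without Anln, Ezh2, Nasp and Pola1, which nuclei outside the cycle can also express, the G2/M share of MCAO ipsi was 74.0% in OPCs, 74.8% in astrocytes, 74.6% in microglia and 67.1% in macrophages. OPCs, astrocytes and microglia were thus alike in this reduced share. Other S members present outside the cycle stayed in it, such as Prim1 (36.7 to 49.9 CPM in neurons) and Helb (48.3 to 78.3 CPM in oligodendrocytes). The likeness therefore holds for this choice of genes left out. The reduced share is not given for Sham or MCAO contra, so the group differences above hold for all members only. In the vascular class of MCAO ipsi the G2/M share was 43.3% with all members and 54.4% without the second Cdc45 identifier.

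Many nuclei carried transcripts of both lists. In mMCAO ipsi and sMCAO ipsi, 73 of 216 (33.8%) and 97 of 357 (27.2%) OPC nuclei were positive for S and G2/M members alike. The same held for 35 of 293 (11.9%) and 69 of 486 (14.2%) astrocyte nuclei and for 42 of 160 (26.3%) and 100 of 292 (34.25%) microglia nuclei. OPCs were S-positive in 97 of 216 (44.9%) and 148 of 357 nuclei (41.5%), and microglia in 60 of 160 (37.5%) and 147 of 292 (50.3%). In microglia of mMCAO ipsi the G2/M-positive nuclei thus outnumbered the S-positive ones, 104 to 60, while in sMCAO ipsi the numbers were 162 and 147. A phase list is a set of transcripts, and a nucleus with both was not assigned to a phase.

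**Figure D4:**
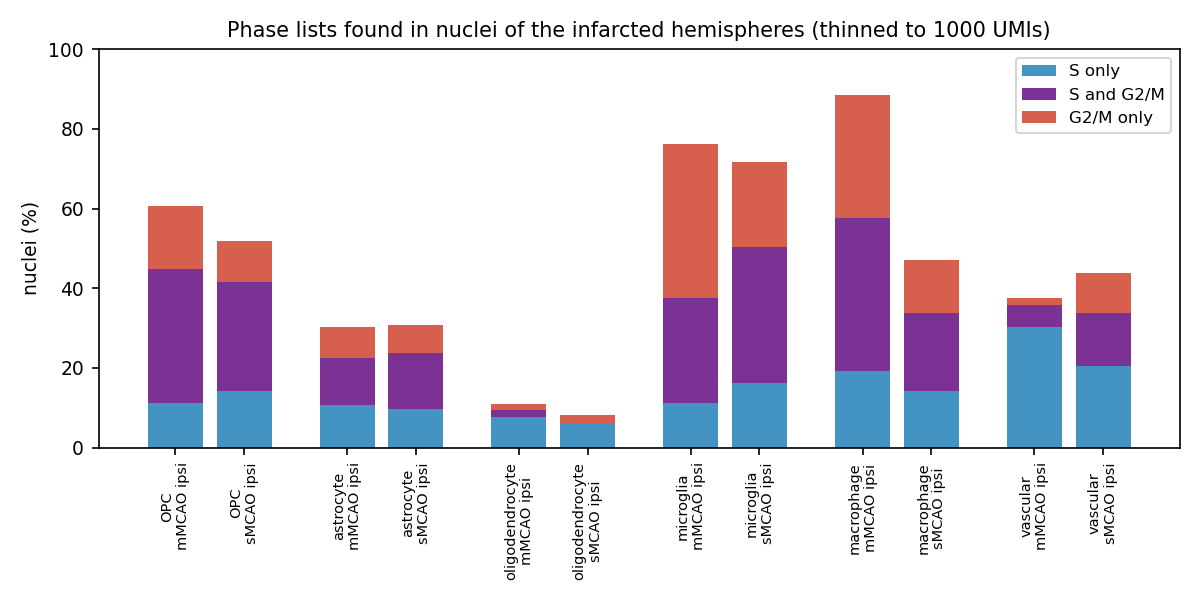
Percent of nuclei in mMCAO ipsi and sMCAO ipsi that held UMIs of at least 2 S members only (blue), of both lists (purple) or of at least 2 G2/M members only (red), after thinning to 1000 UMIs. OPC, microglia and macrophage bars are the tallest, and the vascular bars hold many nuclei with S members only, where the second Cdc45 identifier adds to the S list.

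Moderate and severe infarctions were compared as ratios of summed CPM, without a test. The severe to moderate ratio of G2/M members was 1.10 (1.03 to 1.17) in OPCs, 1.68 (1.55 to 1.81) in astrocytes and 1.25 (1.17 to 1.33) in microglia, and 0.721 (0.629 to 0.830) in macrophages. In the vascular class it was 2.40 (1.93 to 3.01), with 17 fibroblast nuclei in mMCAO ipsi and 78 in sMCAO ipsi, and in endothelial nuclei alone 1.54 (1.15 to 2.11). In oligodendrocytes it was 0.984 (0.821 to 1.18). The S members gave 1.22 in OPCs, 1.25 in astrocytes, 1.31 in microglia and 0.861 (0.723 to 1.03) in macrophages. Each ratio compares 1 library with 1 library.

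Other cell cycle genes from wider lists were counted in the same fits. In OPCs, 13 of 25 tested genes of a further G2/M list were called higher in MCAO ipsi than in Sham, beside 3.73% of all genes tested in OPCs, including Smc4, a condensin subunit (3.32 ± 0.45), Ckap5, a microtubule polymerase (1.32 ± 0.23), Nusap1, a spindle protein (2.35 ± 0.48), and Hmmr, a spindle and hyaluronan-binding protein (1.92 ± 0.43). Of a further S list, 1 of 10 tested genes, the helicase gene Brip1 (2.21 ± 0.39), was called. Among regulators of G1 phase, 3 of 14 were called, namely Cdk6, a kinase that drives entry into the cycle (2.11 ± 0.42), and the factors E2f7 (3.83 ± 0.97) and Mybl2. Of the inhibitors of the cycle, 0 of 3 tested were called (edgeR; 12 were listed). In astrocytes, beside 6.38% of all genes, the counts were 6 of 14 of the G2/M list, 2 of 3 of the S list, 0 of 5 of the G1 regulators and 0 of 3 of the inhibitors, and in oligodendrocytes, beside 0.855% of all genes, 0 in each list. The lists hold 35, 25, 22 and 12 genes. They were chosen with earlier results of these data known, and only genes past the low count filter were tested. These counts are therefore a description and give no separate support for the members.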

How the data were processed

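The authors deposited raw UMI counts per gene and nucleus for 6 libraries, made with Cell Ranger 7.0.0 on the genome build mRatBN7.2 per the submitters' processing notes. Here nuclei with at least 500 UMIs, at least 250 and at most 5000 genes and at most 5% mitochondrial UMIs were kept, and nuclei in the top 5% of a library's doublet scores were removed. Those remaining were assigned to classes with 129 marker genes, and the counts were summed per library and class. The members, the marker lists and the other gene lists were chosen with earlier results of these data known, and cell cycle genes played no part in the gate.

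The sums were fitted per class with edgeR 4.0.16 (quasi-likelihood test, TMM factors, low count filter). Calls needed an adjusted p under 0.05 together with a log2 difference of at least 0.6. Classes with fewer than 20 nuclei in a library were not tested with that group, and the tests of microglia and of all myeloid nuclei on the 4 MCAO libraries were chosen after seeing the data. The test of differences between classes used OPCs, astrocytes, oligodendrocytes and the vascular class, without neurons. Libraries of the same rats pair the MCAO groups, with correlations of their deviations of 0.046 in OPCs, 0.066 in astrocytes, -0.021 in oligodendrocytes and 0.011 in myeloid nuclei. Intervals are exact Poisson or binomial at 95% and cover counting error only. The floor behind a bound is 3 UMIs. DESeq2 1.42.0, other factors, gates and filters were tried as alternatives. The fits were tested on simulated counts. Genes named with values in every library are the 2 with the most UMIs in each role group and up to 3 by lowest p whose calls differed between classes. Some members outside that rule, such as Cdk1, Bub1, the MCM genes and Aurkb, were named after their values were seen. Promoter sequences are RefSeq's on GRCr8 and no coordinate was converted.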

Additional observations from a re-analysis of the deposited data

Results flagged for a closer look

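The change of Ezh2 between MCAO ipsi and Sham was larger in OPCs than in oligodendrocytes by 1.94 ± 0.44 (log2, adjusted p = 0.044, edgeR interaction), and OPC levels were higher in 2 of 2 infarcted libraries than in any other library. Nuclei that the marker gate gave no class lie outside the comparisons and also carried cell cycle transcripts. In mMCAO ipsi 12.09% of them (100 of 827) and in sMCAO ipsi 15.01% (113 of 753) were G2/M-positive after thinning, against 0.42 to 0.88% in the other 4 libraries. The positive ones held less of some marker sets than the others, with 2168 against 2973 CPM of OPC and 5421 against 14510 CPM of neuron markers. Oligodendrocyte markers were at 302 against 418 CPM and macrophage markers at 38.0 against 39.4 CPM. Other sets were higher in the positive ones, with astrocyte markers at 983 against 588 CPM and shared myeloid markers at 520 against 147 CPM. Microglia markers were at 172 against 66.5 CPM and endothelial markers at 124 against 53.4 CPM.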

How the results depend on the processing

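Only values of named genes that were called in the main run were scored, and none of these changed direction in an alternative run. A called value already differs clearly, so a change of direction was unlikely from the start. Values that were not called, such as those of microglia against MCAO contra, were not scored. Of 170 values of named genes, 40 fell under the threshold with DESeq2, 7 with relative log expression (RLE) factors, 5 with no low count filter and 1 with doublet-scored nuclei kept. Fewer values could be scored in the other runs. With the stricter gate 34 fell and 131 held, with no replicate block 17 fell and 81 held, and with the 2 groups alone 9 fell and 61 held. Calls were also lost in most runs that left out 1 library. The causes were not tested, and shares of all genes called are not given for the alternative runs below. Of OPC members higher in MCAO ipsi, DESeq2 called 17 against MCAO contra and 14 against Sham, and the stricter gate called 10 against Sham. Of astrocyte members, DESeq2 called 9 and the stricter gate 3 against Sham. With no filter, 36 astrocyte, 21 microglia, 8 myeloid and 5 vascular members were called against MCAO contra and 7 vascular members against Sham, where doublet-scored nuclei kept gave 2 and DESeq2, the stricter gate and the 2 groups alone gave 0. Between classes, OPCs exceeded astrocytes in 3 members with DESeq2 or the stricter gate, 14 with doublet-scored nuclei kept and 1 with no replicate block, and microglia in 2 with no replicate block. OPCs were below microglia in 1 member with DESeq2, RLE factors, no filter, no replicate block or the stricter gate, and below oligodendrocytes in 0 with DESeq2 or no replicate block and 2 with doublet-scored nuclei kept or no filter. Astrocytes were below microglia in 3 with DESeq2 and 4 with no replicate block, and below oligodendrocytes in 1 with no replicate block. Microglia exceeded macrophages in 1 with DESeq2 or RLE factors, 9 with no filter, 0 with no replicate block and 4 with the stricter gate. The difference between OPCs and oligodendrocytes was called in 0 members with RLE factors or the stricter gate and 2 with no filter.

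With the pairing of the MCAO libraries as a replicate block, 27 OPC, 31 astrocyte and 0 microglia, myeloid, oligodendrocyte and vascular members were called against MCAO contra, and 1 member differed between OPCs and oligodendrocytes. Leaving out 1 library gave 18 to 34 OPC, 6 to 29 astrocyte, 0 to 19 microglia and 0 to 13 myeloid members and 0 to 2 vascular members higher and 0 to 1 lower against MCAO contra, and 7 to 31 OPC, 0 to 24 astrocyte and 0 to 4 vascular members higher and 0 to 1 vascular lower against Sham. The stricter gate was not run for microglia members.

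The G2/M percent of member UMIs in MCAO ipsi without Anln, Ezh2, Nasp and Pola1 was 74.04 in OPCs, 74.81 in astrocytes, 67.05 in macrophages, 74.61 in microglia and 50.11 in the vascular class. It was 54.39 in the vascular class without the second Cdc45 identifier, an alternative chosen after seeing the data, 69.89 in microglia with the stricter gate and 37.32 in oligodendrocytes with doublet-scored nuclei kept. Shares of G2/M-positive nuclei fell at 500 UMIs a nucleus to 27.62% in OPCs, 12.87% in astrocytes, 14.82% in macrophages, 34.12% in microglia, 0.9501% in oligodendrocytes and 7.54% in the vascular class. With at least 3 genes they were 34.73%, 16.3%, 25.62%, 50%, 0.432% and 14.47% in the same order, and with no thinning 24.19% in macrophages and 50.35% in microglia. Shares of S-positive nuclei were 20.29%, 9.901%, 12.95%, 18.86%, 1.9% and 11.9% at 500 UMIs and 29.14%, 11.68%, 21.35%, 26.99%, 0.9719% and 18.09% with at least 3 genes. With no thinning they were 47.12% in OPCs, 34.87% in astrocytes and 28.62% in macrophages, and without the second Cdc45 identifier 27.63% in the vascular class. Depth limits the Sham values of astrocytes, which rest on 22 nuclei of at least 1000 UMIs.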

Other observations

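Ependymal nuclei held a G2/M level of 257 to 585 CPM over the 6 libraries, on 6 to 97 nuclei a library. Aurkb, a kinase of chromosome segregation, gave 67 of the 90 G2/M UMIs in MCAO ipsi and 30 of the 41 in MCAO contra, and Mki67 had 0 UMIs in each of the 6 libraries. Fibroblast nuclei of sMCAO ipsi were G2/M-positive in 33 of 72 (45.8%, exact 95% interval 34.0 to 58.0) and endothelial nuclei of the same library in 17 of 151 (11.3%). In myeloid nuclei not resolved into microglia or macrophages, pooled MCAO ipsi exceeded pooled MCAO contra. The ratio was 1.48 (1.31 to 1.67) for G2/M members and 1.78 (1.53 to 2.08) for S members. The infarcted libraries differed, with a severe to moderate G2/M ratio of 0.670 (0.624 to 0.719). The G2/M level of sMCAO ipsi did not exceed that of sMCAO contra, so the groups overlapped.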
